A study of Mus musculus with 531 samples.

Results

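At embryonic day 4.5 (E4.5) the inner cell mass of the mouse blastocyst holds epiblast cells and primitive endoderm cells, and the RNA of these cell classes was compared within single embryos. The 73 cells described here come from 264 cells with RNA counts in the series, taken at E4.5 and at later stages and prepared so that RNA and DNA methylation were read from the same cell. All E4.5 cells came from C57Bl/6Babr embryos with no treatment or genetic change in the labels, which were dissected from the decidua, freed of trophectoderm by immunosurgery and dissociated with Accutase before single cells were picked by hand with a pulled pipette. The labels give no lineage and no embryo sex, and they assign the cells to 5 embryos, whereas the study's methods name fewer embryos at this stage. The labels carry the prefix P1 for embryos 1 and 2 and P2 for embryos 3 to 5.

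Members were chosen by measured values. Of 91 E4.5 cells, 75 had at least 50000 reads in genes and at least 2000 detected genes. Each was given an epiblast score, the mean log2(CPM + 1) of Fgf4, Tdgf1 and Slc7a3, and an endoderm score, the same mean over Gata6, Pdgfra, Cubn and Dab2, where CPM is the read count of a gene per 1000000 reads of the cell in genes. A cell whose epiblast score was higher by at least 1 was classed as epiblast (22 cells), one whose endoderm score was higher by at least 1 as endoderm (51 cells), and 2 cells were dropped. Embryos 1 to 5 gave 4, 4, 5, 5 and 4 epiblast cells and 9, 4, 5, 19 and 14 endoderm cells. Reads were summed over the cells of each class in each embryo, so that the embryo and not the cell was the replicate (5 against 5 sums, paired within embryos). If cells under different embryo labels came from the same embryo, fewer animals than 5 stand behind the p-values. Since the same libraries defined the classes, the p-values below ask whether a difference held across embryos and not whether the classes exist.

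The epiblast is the pluripotent tissue from which the body of the fetus arises, and the primitive endoderm is a polarised epithelium that lines it and later forms the visceral and parietal endoderm of the yolk sac. Both descend from a common inner cell mass in which Nanog and Gata6 are at first present together. FGF4 made by prospective epiblast cells acts on FGF receptors of their neighbours and favours Gata6, after which a cascade of Gata4, Sox17 and Sox7 sets up the endoderm programme. The primitive endoderm is known for secreting basement membrane and for taking up maternal proteins through the receptors megalin and cubilin.

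The classing genes are given as a description only. In epiblast cells Tdgf1, the Nodal coreceptor Cripto, ranged over embryos from 742 to 1259 CPM, against 0 to 24 CPM in endoderm cells. Gata6 ranged from 0 to 23.7 CPM in epiblast cells and from 96.8 to 189 CPM in endoderm cells. Most cells lay well beyond the margin of 1 that the rule itself sets on either side. Apart from 1 cell, every endoderm cell had a score difference (epiblast minus endoderm) of -5.81 or less, and apart from 2 cells, every epiblast cell had one of 3.19 or more.

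**Figure D1:**
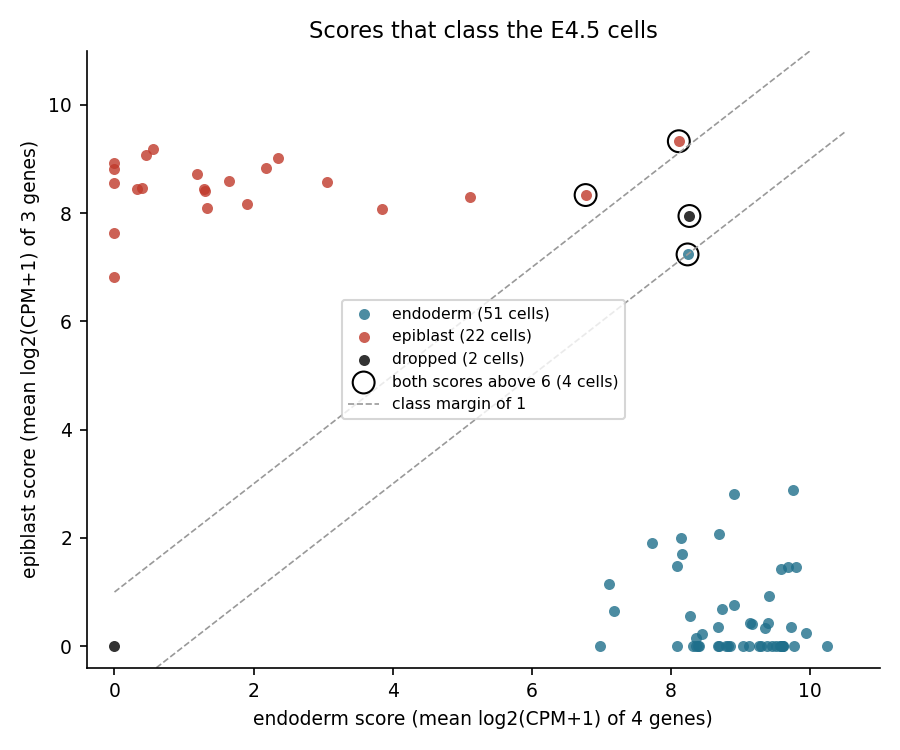
Epiblast score against endoderm score for the 75 E4.5 cells that passed the cell filter, each point a cell, in mean log2(CPM + 1), with dashed lines at the margin of 1 that sets the classes. The 22 epiblast cells lie at upper left, the 51 endoderm cells at lower right, and 4 ringed cells have both scores above 6.

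4 cells scored above 6 on both scales, a limit set after the scores were seen. A cell of embryo 4 with a difference of -1.0 was just inside the endoderm class, a cell of embryo 1 with -0.32 was just outside both, and 2 cells of embryo 5, with 1.22 and 1.56, were just inside the epiblast class, where they made up 2 of the 4 epiblast cells of that embryo. The other dropped cell, of embryo 1, had no read in any of the 7 genes. Whether each of the 4 libraries came from 1 cell was not tested. Widening the margin to 2 removed the 3 classed ones, and counts without them are given beside the main counts. An epiblast cell of embryo 3 lay under the limit of 6, with an endoderm score of 5.11. With a difference of 3.19 it stayed in its class at the margin of 2.

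Classed cells held 306995 to 2632015 reads and 2389 to 9336 detected genes, and the sums held 1747123 to 29726466 reads. The direction of the difference in reads per cell varied between embryos: the log2 difference of class medians (epiblast minus endoderm) was 0.10, 0.26, 0.16, -0.69 and -0.47 in embryos 1 to 5 (exact sign-flip permutation test, two-sided p = 0.5625, n = 5). After every cell was thinned to 50000 reads, median detected genes were lower in epiblast cells in 5 of 5 embryos, with differences of -395, -515.5, -169, -234 and -114.5 genes (mean difference -285.6 ± 166 SD, exact p = 0.0625, n = 5), and 0.0625 is the smallest p that 5 pairs allow. Of the 14 endoderm cells labelled embryo 5, 6 had at least 10 reads over 4 Y-linked genes, as had all 24 classed cells of embryo 4, whereas no epiblast cell of embryo 5 and no classed cell of embryos 1 to 3 did. Whether the cells labelled embryo 5 came from 1 embryo was not tested, and counts without it are given below.

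Most marker genes checked that took no part in the classing followed the names of the classes, and Pou5f1 and Zfp42 did not separate them by detection. Sox2, a pluripotency factor, was read in 22 of 22 epiblast cells and in 12 of 51 endoderm cells. Nanog was read in 21 of 22 epiblast cells and in 16 of 51 endoderm cells. Gata4 was read in 6 of 22 and 50 of 51 cells, Sox17 in 4 of 22 and 38 of 51, and Amn, the partner of cubilin, in 11 of 22 and 51 of 51. The pluripotency genes Pou5f1 and Zfp42 were read in 22 of 22 epiblast cells each and in 50 and 46 of 51 endoderm cells. Of 7 trophectoderm markers checked cell by cell, out of a list of 16, Krt7 and Hand1 had no read in either class, Cdx2 had 1 read in all, and the summed level of the 7 ranged from 12.3 to 40.2 CPM over embryos in epiblast cells and from 12.9 to 77.7 CPM in endoderm cells. Tead4 gave 417 of the 495 and 1353 of the 1396 reads behind these sums. Plac1, also in that list, was read in 3 of 22 epiblast and 43 of 51 endoderm cells, and Krt8, a keratin of simple epithelia outside it, in 3 of 22 and 18 of 51, and the part of other cell types in these reads was not tested. A count of 0 of 22 cells allows a share of up to 13.6% with a read, and 0 of 51 up to 5.88%, taking 3 cells as the limit that a count of 0 allows.

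Of 9372 genes tested, 526 (5.61% of those tested) were higher in epiblast cells and 705 (7.52%) were higher in endoderm cells, 13.1% in all, at a Benjamini-Hochberg adjusted p under 0.05 in edgeR's quasi-likelihood test with the embryo as block. The 7 classing genes were left out of the test. Of the called genes, 511 of the 526 and 678 of the 705 had the same direction in 5 of 5 embryos. The 5 epiblast and 5 endoderm sums did not overlap for 73.3% of the called genes, against 12.9% of all genes tested. These directions and shares come from the same sums that gave the calls, so they are partly built in. The median log2 fold change (epiblast minus endoderm, the sign used throughout) was 2.50 among genes higher in epiblast cells, -3.42 among genes higher in endoderm cells and -0.21 over all genes tested. Without the 3 classed cells that scored high on both scales the counts were 465 and 667, and without embryo 5 they were 469 and 593. The counts fell most without embryo 1, to 335 and 396; the endoderm count also fell to 460 without embryo 2 and to 435 without embryo 4.

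**Figure D2:**
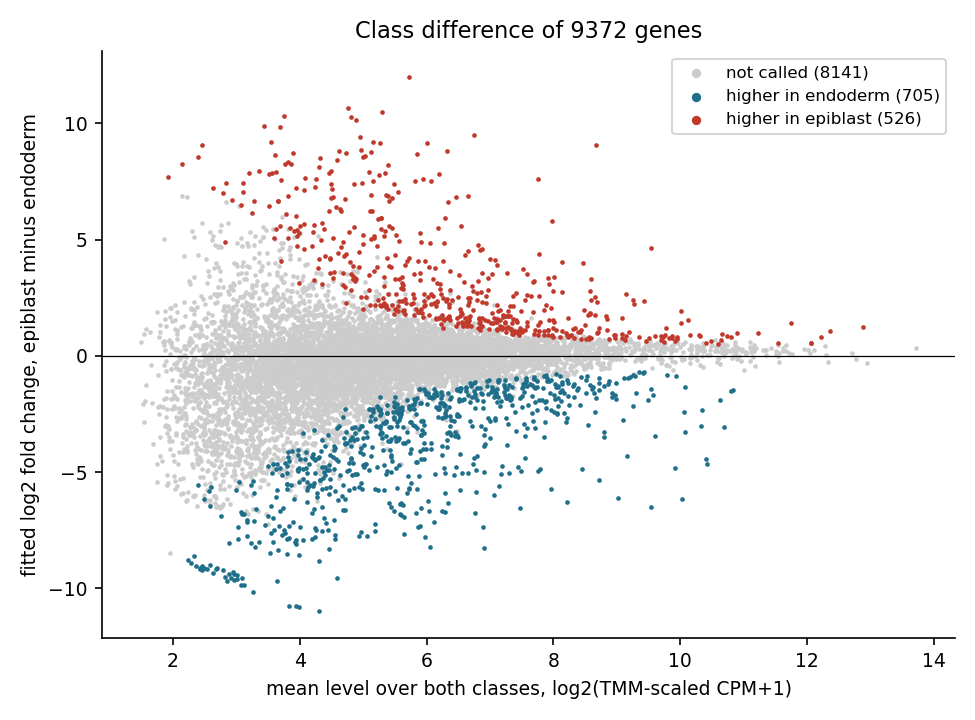
Fitted log2 fold change (epiblast minus endoderm) of 9372 genes against their mean level over both classes in log2(CPM + 1), each point a gene. Red and blue points are the 526 genes higher in epiblast cells and the 705 higher in endoderm cells, and grey points are the 8141 not called.

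Embryos that share no cells mostly gave the same directions. Fitted alone, embryos 1 and 2 called 509 of 8915 genes (5.71%), and of the 503 of these that were also tested in embryos 3 to 5, 500 (99.4%) had the same sign there. Embryos 3 to 5 alone called 472 of 9716 genes (4.86%), of which 458 were tested in embryos 1 and 2 and 451 (98.5%) had the same sign. Over all 8549 genes tested in both sets, 71.7% had the same sign. 260 genes passed in both sets with the same sign, 51.7% and 56.8% of the shared lists. The fit of embryos 1 and 2 rests on 1 residual degree of freedom.

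Levels below are CPM scaled by TMM (trimmed mean of M values) for the sums of embryos 1 to 5 in that order, and each fold change is a fitted log2 value with its standard error.

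Pluripotency factors were the list most often higher in epiblast cells: 16 of 26 tested members were higher there, 3 were higher in endoderm cells and 7 did not pass, with a median log2 fold change of 2.04 (5.61% and 7.52% over all genes, median -0.21). Nanog, the homeobox factor that holds naive pluripotency (chr6:122707489-122714633, plus strand, GRCm38), stood at 84.5, 85.5, 109, 94.6 and 174 CPM in the epiblast sums and at 0.392, 1.14, 0, 2.82 and 0.209 CPM in the endoderm sums. The ranges did not overlap (log2 fold change 7.51 ± 0.91, adjusted p = 0.00028). The epiblast value of embryo 5 came mostly from 1 of the 2 cells high on both scores, with Nanog at 391 CPM against 4.31 CPM in the other. Before TMM scaling that sum was 162 CPM with all 4 cells and 5.81 CPM without these 2. With the margin of 2 the log2 fold change of Nanog was 6.57 (adjusted p = 0.001).

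The naive factors Klf2 and Esrrb, which act with Nanog in the network of embryonic stem cells, had 53.5 to 105 and 51.4 to 127 CPM in epiblast cells and 0 to 3.72 and 0 to 21.9 CPM in endoderm cells. Both were called, Klf2 with 5.37 ± 0.72 and adjusted p = 0.00058, and Esrrb with 5.19 ± 1.14 and adjusted p = 0.011. Klf2 in the epiblast sum of embryo 5 was 67.2 CPM before scaling with all 4 cells and 0 CPM without the 2 high on both scores, and with the margin of 2 its log2 fold change was 4.99 (adjusted p = 0.0496). Sox2 was at 66.4 to 173 against 1.17 to 12.3 CPM (4.88 ± 0.69, adjusted p = 0.00081). Otx2, a homeobox factor of the later, primed epiblast, was at 133, 104, 75.4, 47.2 and 64.96 CPM in epiblast cells and at 0, 0, 0, 4.53 and 1.98 CPM in endoderm cells (6.81 ± 1.22, adjusted p = 0.0032). Nr0b1, an orphan nuclear receptor of the naive network, spanned 72.6 to 329.5 and 0 to 52.4 CPM (5.59 ± 1.22, adjusted p = 0.01). The call did not hold for Esrrb without embryo 1 (adjusted p = 0.055) and Nr0b1 without embryo 1 (adjusted p = 0.058).

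Other members differed by less. Pou5f1, which encodes OCT4, was read in 22 of 22 epiblast and 50 of 51 endoderm cells and was at 2018, 1621, 1440.2, 1069 and 1336 CPM in epiblast cells and 679.8, 727, 572, 573 and 308 CPM in endoderm cells (1.41 ± 0.20, adjusted p = 0.00085). Its lowest epiblast value was above its highest endoderm value. Dppa5a, an RNA-binding protein of early embryos, spanned 8238 to 12836 against 3095 to 5125 CPM (1.25 ± 0.15, adjusted p = 0.00023). Tdh, the threonine dehydrogenase of mouse pluripotent cells, L1td1, an RNA-binding protein, and Trim28, a corepressor recruited by KRAB zinc finger proteins, were higher by log2 values of 2.77 ± 0.31, 2.57 ± 0.31 and 1.77 ± 0.21.

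Some factors of the same list went the other way or did not separate the classes. Klf5 was at 89.9, 88.97, 171, 58.9 and 70.3 CPM in epiblast cells and 270.0, 317, 391.98, 201 and 183 CPM in endoderm cells (-1.55 ± 0.25, adjusted p = 0.0019), and Tbx3 and Sall4 were also higher in endoderm cells, by log2 values of -1.53 ± 0.43 (adjusted p = 0.032) and -0.86 ± 0.24 (adjusted p = 0.032). Tbx3 was not called with the margin of 2. Not past the threshold were Sall4 without embryo 1, 2, 3 or 4 (adjusted p = 0.051 to 0.13) and Tbx3 without embryo 1, 2, 3 or 4 (adjusted p = 0.092 to 0.12). Zfp42, which encodes REX1 and is widely used as a reporter of naive pluripotency, had 39.6, 98.9, 72.8, 129.5 and 179 CPM in epiblast cells and 141, 91.1, 69.8, 106 and 165 CPM in endoderm cells. These ranges overlapped (-0.21 ± 0.38, adjusted p = 0.77), which does not show that the levels were alike.

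**Figure D3:**
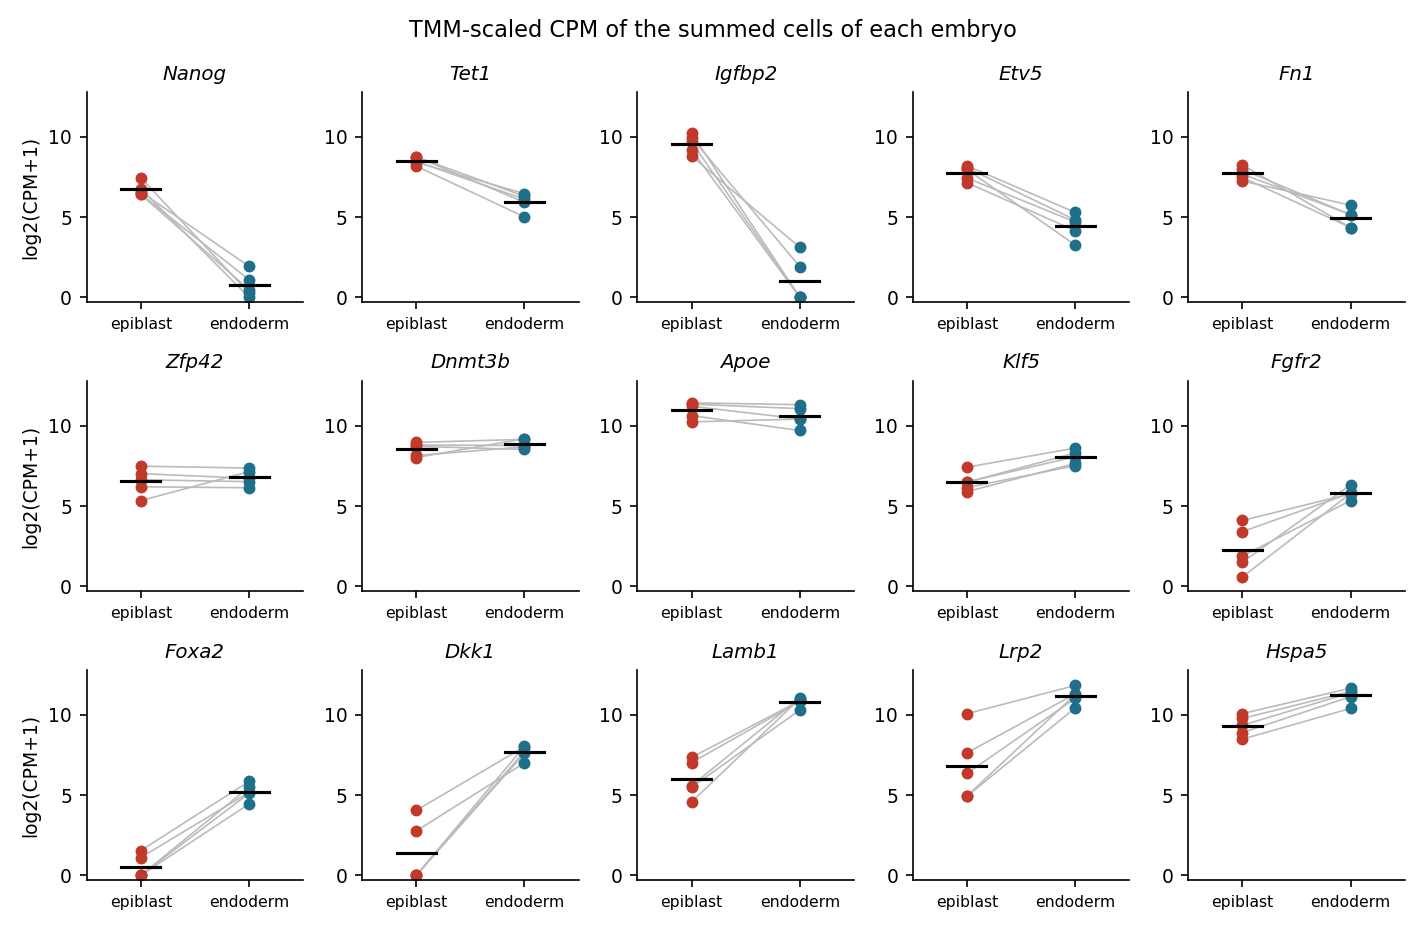
Levels of 15 genes in the summed epiblast (red) and endoderm (blue) cells of each embryo, in log2(TMM-scaled CPM + 1), each point 1 embryo, grey lines joining the sums of 1 embryo and black bars the mean of 5. Nanog lies at 84.5 CPM or more in epiblast sums and at 2.82 CPM or less in endoderm sums (embryo 5 epiblast, before scaling, 162 CPM with and 5.81 CPM without the 2 cells high on both scores), Zfp42, Dnmt3b and Apoe overlap between classes, and Klf5 to Hspa5 are higher in endoderm cells.

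Transcription factors of the primitive endoderm formed the opposite picture: 11 of 15 tested members were higher in endoderm cells, none was higher in epiblast cells (7.52% and 5.61% over all genes), and the list median was -4.57. Gata4, which acts downstream of Gata6, was at 0, 0, 18.95, 0.959 and 53.4 CPM in epiblast cells and 295, 238, 331, 233 and 154 CPM in endoderm cells (-5.96 ± 1.16, adjusted p = 0.0051). The epiblast sum of embryo 5 was 49.5 CPM before scaling with all 4 cells and 1.94 CPM without the 2 high on both scores. In embryo 3, the epiblast cell with an endoderm score of 5.11 had Gata4 at 114 CPM, Amn at 309 CPM and Lama1 at 395 CPM. The other epiblast cells of embryo 3 had Gata4 at 3.61 CPM or less. Sox17 and Sox7, SRY-box factors of the endoderm, spanned 56.7 to 206 and 104 to 277 CPM in endoderm cells and 0 to 29 and 0 to 35.7 CPM in epiblast cells, with log2 values of -4.57 ± 1.16 (adjusted p = 0.022) and -4.92 ± 1.05 (adjusted p = 0.0089). In fits of 4 embryos the call was lost for Sox17 without embryo 1 or 3 (adjusted p = 0.07 to 0.073).

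Foxa2, a forkhead factor of definitive and extraembryonic endoderm, had 0, 0, 0, 1.92 and 1.16 CPM in epiblast cells and 44.4, 33.6, 20.9, 57.03 and 35.1 CPM in endoderm cells (-6.51 ± 1.18, adjusted p = 0.0033). Foxq1, another forkhead factor, spanned 0.994 to 14.8 and 81.3 to 227 CPM (-5.05 ± 0.72, adjusted p = 0.00084). Klf6 and the X-linked homeobox gene Rhox5 were lower in epiblast cells with smaller log2 values of -2.18 ± 0.29 and -1.92 ± 0.35. Hnf4a, a nuclear receptor of visceral endoderm, did not pass, with 0, 0, 10.96, 14.4 and 42.7 CPM in epiblast cells and 44.6, 39.9, 86.02, 58.8 and 17.2 CPM in endoderm cells (-3.29 ± 1.35, adjusted p = 0.14). Its epiblast value was highest in embryo 5, at 39.6 CPM before scaling with all 4 cells and 0 CPM without the 2 high on both scores. With the margin of 2, and also without embryo 5, 12 members of the list were higher in endoderm cells.

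In the FGF and ERK pathway, where the ligand Fgf4 had defined the classes, 5 of 26 tested genes were higher in epiblast cells, 4 in endoderm cells and 17 did not pass (5.61% and 7.52% over all genes, median 0.20). Fgfr2 was at 9.63, 0.497, 1.83, 2.69 and 16.2 CPM in epiblast cells and 55.02, 54.7, 79.6, 39.7 and 53.4 CPM in endoderm cells (-3.85 ± 0.87, adjusted p = 0.012), and Fgfr3 at 0, 0, 1.83, 0.192 and 40.6 and 184, 113, 126, 65.02 and 65.7 CPM (-6.54 ± 1.31, adjusted p = 0.0061). The only high epiblast value of Fgfr3 was that of embryo 5. Fgfr1 was the reverse, with 88.8, 38.3, 68.7, 25.5 and 63.1 CPM in epiblast cells and 11.2, 14.2, 9.83, 9.17 and 0.782 CPM in endoderm cells (2.83 ± 0.82, adjusted p = 0.039). Fgfr4 was low in both classes, at 0 to 3.71 and 2.46 to 27.6 CPM, and did not pass (adjusted p = 0.12). No longer called were Fgfr1 without embryo 1, 3 or 5 (adjusted p = 0.062 to 0.13) and Fgfr2 without embryo 3 (adjusted p = 0.052).

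Among ligands, Fgf3 spanned 0 to 13.4 CPM in epiblast cells and 22.5 to 141 CPM in endoderm cells (-4.71 ± 1.05, adjusted p = 0.011), and Fgf10 0 to 58.7 and 37.6 to 130.1 CPM (-4.69 ± 1.15, adjusted p = 0.018). Both were higher in endoderm cells, though the ranges of Fgf10 overlapped through the epiblast sum of embryo 5, which was 54.5 CPM before scaling with all 4 cells and 0 CPM without the 2 high on both scores. The ETS factors Etv5 and Etv1, the ERK phosphatase Dusp6 and Spry2 are known to be induced by ERK signalling, and other members of the list were among the 17 that did not pass. The ETS factor Etv5 was at 269, 294, 249.8, 172 and 141 CPM in epiblast cells and 27.4, 38.2, 8.6, 25.02 and 16.8 CPM in endoderm cells (3.36 ± 0.39, adjusted p = 0.0002), Etv1 spanned 13.9 to 50.8 and 0 to 0.806 CPM (7.67 ± 1.33, adjusted p = 0.0026), and the ERK phosphatase Dusp6 29.5 to 93.4 and 8.11 to 19.4 CPM (2.14 ± 0.58, adjusted p = 0.029). Spry2, a feedback inhibitor of receptor tyrosine kinases, was higher by 1.31 ± 0.32 (adjusted p = 0.018), a call that was lost with the margin of 2. These 4 genes and Fgfr1 were the 5 epiblast calls of the list. The call did not hold for Fgf10 without embryo 1, 2 or 4 (adjusted p = 0.055 to 0.069), Dusp6 without embryo 1, 2, 3 or 4 (adjusted p = 0.055 to 0.13) and Spry2 without embryo 5 (adjusted p = 0.076).

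Of 11 tested genes of PDGF, LIF and insulin-like signalling, 1 was higher in each class (5.61% and 7.52% over all genes, median -0.76), shares near those of all genes. Igfbp2, a secreted binding protein of insulin-like growth factors (chr1:72824503-72852474, plus strand), was at 1201, 817, 584, 447 and 996 CPM in epiblast cells and 0, 0, 0, 7.62 and 2.76 CPM in endoderm cells. It was read in 22 of 22 epiblast cells and 11 of 51 endoderm cells (log2 fold change 9.09 ± 0.94, adjusted p = 0.00011). Igf2r, the receptor that clears IGF2, went the other way, at 1.49 to 72.6 and 25.1 to 158 CPM (-2.48 ± 0.72, adjusted p = 0.039). Not past the threshold was Igf2r without embryo 1, 2, 4 or 5 (adjusted p = 0.06 to 0.14). Pdgfa, the ligand of the receptor Pdgfra, spanned 77.96 to 237 CPM in epiblast cells and 21.4 to 124 CPM in endoderm cells and did not pass (1.25 ± 0.42, adjusted p = 0.071).

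In the Nodal, BMP and Wnt pathways 3 of 31 tested genes were higher in epiblast cells, 5 were higher in endoderm cells and 23 did not pass (5.61% and 7.52% over all genes, median -0.56). The TGF-beta ligand Gdf3 was at 383, 282, 203, 251 and 163 CPM in epiblast cells and 10.4, 17.1, 13.8, 34.3 and 12.5 CPM in endoderm cells (3.92 ± 0.39, adjusted p = 8.9e-05). Bmp4 spanned 13.9 to 138 and 0 to 3.39 CPM (5.58 ± 0.96, adjusted p = 0.0024), and Lef1, a nuclear partner of beta-catenin, 26.3 to 129 and 0 to 0.605 CPM (7.78 ± 1.06, adjusted p = 0.00063). The epiblast and endoderm sums did not overlap for any of the 3. Bmp4 was not called with the margin of 2, and its epiblast value in embryo 5 was 92.2 CPM before scaling with all 4 cells and 11.6 CPM without the 2 high on both scores.

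Dkk1, a secreted Wnt antagonist, was at 0, 0, 15.5, 0 and 5.8 CPM in epiblast cells and 262, 193, 259, 210.0 and 128 CPM in endoderm cells (-6.74 ± 1.05, adjusted p = 0.0014). Id1, a target of BMP signalling, spanned 0 to 44.5 and 48.2 to 494 CPM (-5.10 ± 1.05, adjusted p = 0.0074). Bmp6 had no read in any epiblast cell and 4.43 to 27.3 CPM in endoderm cells, at least 56.2-fold higher when the epiblast total is set to a floor of 3 reads (85.6-fold without the endoderm sum of embryo 4). Smad2, a transducer of Nodal signals, and Furin, a protease that matures Nodal, were higher in endoderm cells by log2 values of -2.47 ± 0.56 and -5.13 ± 1.28. Nodal itself had 1.6, 41.8, 19.2, 6.71 and 3.48 CPM in epiblast cells and 40.7, 41.6, 0, 5.81 and 1.46 CPM in endoderm cells, and its antagonist Lefty1 0, 40.3, 117, 11.3 and 3.02 and 302, 191, 0, 88.1 and 30.3 CPM. Neither passed (adjusted p = 0.87 and 0.31), and their ranges overlapped. In fits of 4 embryos the call was lost for Furin without embryo 3 or 4 (adjusted p = 0.053 to 0.07) and Bmp6 without embryo 1 or 2 (adjusted p = 0.06 to 0.061).

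Of 31 tested basement membrane and matrix genes, 14 were higher in endoderm cells, 3 in epiblast cells and 14 did not pass (7.52% and 5.61% over all genes, median -1.84). The laminin chain Lamb1 (chr12:31265234-31329644, plus strand) was at 129, 22.9, 47.3, 43.9 and 162 CPM in epiblast cells and 1838, 2079, 2140.1, 1266 and 1888 CPM in endoderm cells (-4.81 ± 0.41, adjusted p = 5.9e-05). Lama1 and Lamc1, which assemble with it into laminin-111, spanned 560.3 to 1505 and 781 to 2427 CPM in endoderm cells and 0.497 to 138 and 60.1 to 274 CPM in epiblast cells, with log2 values of -6.12 ± 0.99 and -3.46 ± 0.31. The 3 chains of that trimer were higher in endoderm cells in every embryo. Lamb1 in the epiblast sum of embryo 5 was 151 CPM before scaling with all 4 cells and 0.484 CPM without the 2 high on both scores, and Lamc1 was 254 and 53.3 CPM.

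Collagen IV chains Col4a1 and Col4a2 spanned 476 to 985 and 333 to 719 CPM in endoderm cells and 1.6 to 248 and 0 to 41.8 CPM in epiblast cells, by -5.35 ± 0.94 and -6.28 ± 0.91. These genes share exonic bases on opposite strands, so reads in that stretch cannot be told apart without strand. Genes that process collagen were also among the 14. Serpinh1, the collagen chaperone HSP47, was at 70.6, 56.7, 169, 36.6 and 415 CPM in epiblast cells and 1936, 4011, 1958, 2304 and 2799 CPM in endoderm cells (-4.64 ± 0.48, adjusted p = 0.00011). P4hb, a subunit of prolyl 4-hydroxylase and a disulfide isomerase, was at 436 ± 57.2 CPM (mean ± SD, n = 5) in epiblast cells and 2176 ± 241 CPM in endoderm cells (-2.32 ± 0.17, adjusted p = 3.3e-05). Sparc, a collagen-binding glycoprotein, differed by -3.04 ± 0.29. Without the same 2 cells, the epiblast sum of embryo 5 fell from 385 to 151 CPM for Serpinh1 and from 231 to 18.4 CPM for Col4a1, before scaling. For Sparc it fell from 630 to 132 CPM and for P4hb from 452 to 157 CPM.

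Not all matrix genes followed. Fibronectin, Fn1, was at 151, 205, 249.8, 305 and 177 CPM in epiblast cells and 52.7, 34.7, 34.4, 19.2 and 19.3 CPM in endoderm cells (2.83 ± 0.39, adjusted p = 0.00073). Col18a1, the source of endostatin, spanned 16.5 to 149.6 and 0 to 5.94 CPM (5.18 ± 0.81, adjusted p = 0.0014), and the integrin chain Itgb5 6.5 to 20.6 and 0 to 1.24 CPM (4.92 ± 1.49, adjusted p = 0.047). These 3 were the members higher in epiblast cells. The laminin chain Lama5 did not pass, at 69.1 to 135 and 17.1 to 95.4 CPM (1.61 ± 0.50, adjusted p = 0.052), nor did Itgb1, the common chain of laminin-binding integrins (-0.47 ± 0.45, adjusted p = 0.55). Itgb5 was also lost with no low-count filter and with the stricter cell filter, and with the margin of 2 it was not among the genes tested. Before scaling its epiblast value in embryo 5 was 6.03 CPM, and 0 CPM without the 2 cells high on both scores. No longer called was Itgb5 without embryo 1, 2, 3, 4 or 5 (adjusted p = 0.077 to 0.15).

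Endocytic uptake and serum carrier genes, apart from the classing genes Cubn and Dab2, counted 15 of 26 higher in endoderm cells and 1 in epiblast cells (7.52% and 5.61% over all genes, median -3.26). Lrp2, which encodes megalin, the endocytic partner of cubilin, was at 80.8, 29.8, 198, 29.5 and 1078 CPM in epiblast cells and 2095, 2468, 2533, 1387 and 3654 CPM in endoderm cells (-4.45 ± 0.57, adjusted p = 0.00038). Its chaperone Lrpap1 was at 211, 143, 190.0, 125 and 404 and 2494, 1723, 1659, 1848 and 1933 CPM (-3.29 ± 0.25, adjusted p = 3.3e-05), and Amn, which carries cubilin to the surface, at 0 to 501 and 537 to 2094 CPM (-6.52 ± 1.34, adjusted p = 0.0074). For Lrp2, Lrpap1 and Amn the highest epiblast value was that of embryo 5. Before TMM scaling, Lrp2 in the epiblast sum of embryo 5 was 1001 CPM with all 4 cells and 100.2 CPM without the 2 that scored high on both scales. In the same order Lrpap1 was 375 and 63.9 CPM, and Amn was 465 and 83.8 CPM.

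Aqp8, a water channel, was at 0, 0, 2.97, 0 and 1.39 CPM in epiblast cells and 248, 232, 192, 97.5 and 411 CPM in endoderm cells (-8.27 ± 0.75, adjusted p = 6.1e-05). Ttr, the thyroid hormone and retinol carrier of visceral endoderm, spanned 0 to 10.2 and 37.6 to 119 CPM (-5.67 ± 0.90, adjusted p = 0.0015), and Soat1, which esterifies cholesterol, 0.959 to 44.9 and 115 to 273 CPM (-4.30 ± 0.65, adjusted p = 0.0011). Apoe, a lipid carrier, did not separate the classes, with 2775, 2395, 1598, 1219.8 and 2621 CPM in epiblast cells and 2563, 1385, 839.5, 1377 and 2160.4 CPM in endoderm cells (0.39 ± 0.19, adjusted p = 0.2). Apoa2 was the member higher in epiblast cells, at 16.4 to 50.1 against 0 to 8.03 CPM (5.15 ± 1.28, adjusted p = 0.02). The call did not hold for Apoa2 without embryo 3, 4 or 5 (adjusted p = 0.053 to 0.085).

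Lysosomal genes were higher in endoderm cells for 18 of 36 tested and higher in epiblast cells for 2 (7.52% and 5.61% over all genes, median -1.59). The protease Ctsl was at 182, 179, 161, 153 and 1253 CPM in epiblast cells and 2545, 1536, 1181, 1881 and 3745 CPM in endoderm cells (-3.01 ± 0.30, adjusted p = 8.7e-05). The epiblast value of embryo 5 stood far above the others, and was 1163 CPM before scaling with all 4 cells and 334 CPM without the 2 high on both scores. Cathepsins Ctsz and Ctsc differed by -4.31 ± 0.54 and -2.94 ± 0.45, and the membrane proteins Lamp1 and Cd63 by -2.12 ± 0.29 and -1.67 ± 0.19.

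Manba, the lysosomal beta-mannosidase, went the other way, at 149, 191, 195, 178 and 194 CPM in epiblast cells and 20.95, 3.99, 2.7, 9.44 and 17.98 CPM in endoderm cells (4.35 ± 0.54, adjusted p = 0.00034). Tfe3, a factor that activates lysosomal genes, was at 162, 182, 172, 49.7 and 173 and 42.9, 59.8, 38.3, 42.96 and 38.5 CPM (1.63 ± 0.39, adjusted p = 0.017). Its epiblast value in embryo 4 was within the range of the endoderm values. Not past the threshold was Tfe3 without embryo 1, 3 or 5 (adjusted p = 0.05 to 0.07).

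The secretory pathway held the largest share of calls among the lists: 32 of 42 tested genes were higher in endoderm cells and none in epiblast cells (median -1.58, 7.52% and 5.61% over all genes). Hspa5, the endoplasmic reticulum (ER) chaperone BiP (chr2:34771970-34777547, plus strand), was at 654, 359, 877, 476 and 1082 CPM in epiblast cells and 2671, 1357, 2828, 2255 and 3253 CPM in endoderm cells (-1.89 ± 0.17, adjusted p = 5.9e-05). Hsp90b1, the ER paralog of HSP90, was at 956 ± 349.6 and 2699 ± 915 CPM (mean ± SD, n = 5), and Calr, the lectin chaperone calreticulin, at 310.5 ± 17.4 and 953 ± 254 CPM, with log2 values of -1.48 ± 0.19 and -1.58 ± 0.21. The ranges overlapped for Hsp90b1, through the epiblast sum of embryo 5, and not for Calr. Without the 2 cells high on both scores, the epiblast sum of embryo 5 before scaling fell from 1004 to 131 CPM for Hspa5, from 1434 to 514 CPM for Hsp90b1 and from 286 to 43.1 CPM for Calr. The disulfide isomerase Pdia6 and the cargo receptor Surf4 differed by -1.85 ± 0.20 and -2.69 ± 0.27. The count was 30 with the margin of 2 and 30 without embryo 5.

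**Figure D4:**
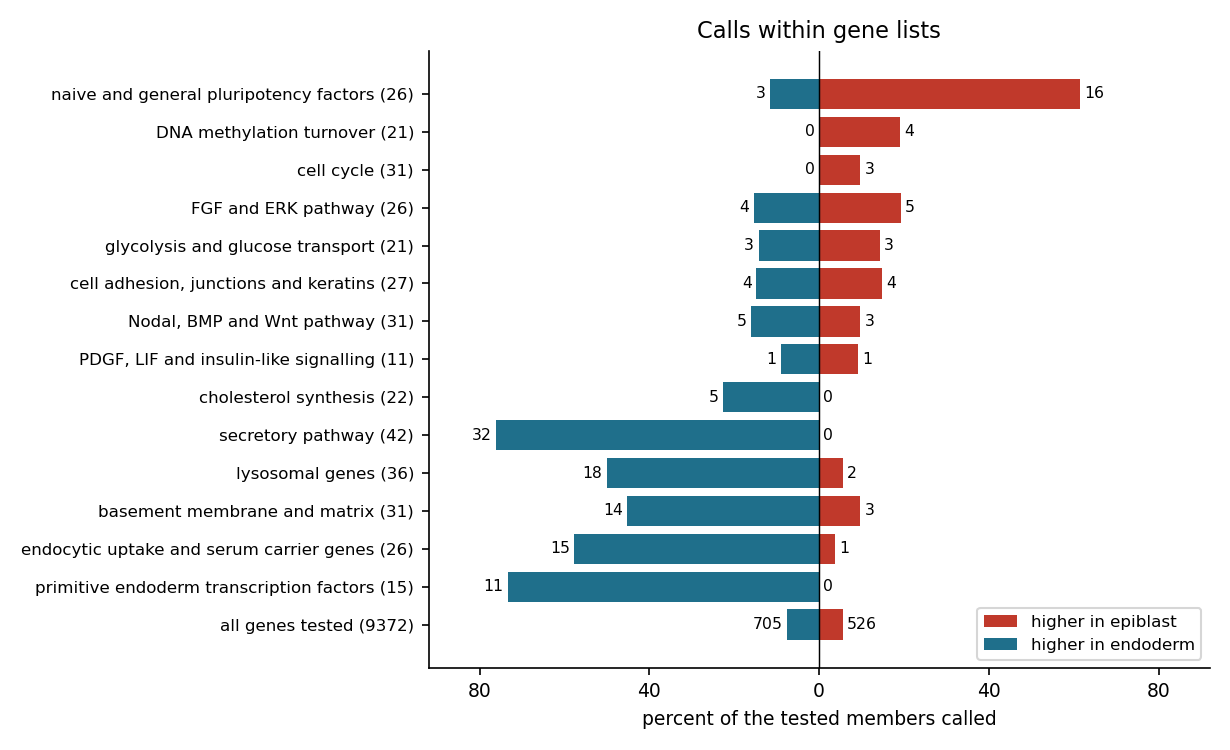
Percent of the tested members of 14 gene lists, and of all genes tested, that were called higher in epiblast cells (red, right) or in endoderm cells (blue, left), with the number of called members beside each bar and the number tested in brackets. Secretory pathway genes have 32 of 42 members higher in endoderm cells and pluripotency factors 16 of 26 higher in epiblast cells.

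Promoters were read from RefSeq for the tested genes that matched by symbol, 7454 of 9372, as windows from 250 bases before to 50 bases after each start site in GRCm38.p6. A known control element of ER chaperone genes is the ER stress response element, here CCAAT and, after 9 bases of any kind, CCACG, searched on both strands. It was in 0.119% of all 32851 promoter windows, 0.168% of the 9514 windows of tested genes, 0.182% of the 550 windows of genes higher in epiblast cells, 1.11% of the 722 windows of genes higher in endoderm cells and 18.9% of the 37 windows of secretory pathway genes. Of 16 tested genes with a match, 8 were higher in endoderm cells and 1, Zfp57, in epiblast cells (7.52% and 5.61% over all genes). These 8 are Syvn1 and the 7 secretory pathway genes with a match. The 1.11% and the 18.9% therefore rest mostly on the same genes and are not separate results. The stretches around the match are shown for the 8, chosen after their values were seen, since they show where the element lies in genes that differ together. Capitals mark the match on the strand read 5′ to 3′ toward the gene:
Hspa5 (chr2:34772005-34772063, plus strand): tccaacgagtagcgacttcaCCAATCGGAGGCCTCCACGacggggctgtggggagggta
Pdia6 (chr12:17266471-17266529, plus strand): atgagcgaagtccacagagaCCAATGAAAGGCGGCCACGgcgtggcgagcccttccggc
Hsp90b1 (chr10:86705618-86705676, minus strand): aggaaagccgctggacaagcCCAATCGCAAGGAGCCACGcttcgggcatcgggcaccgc
Calr (chr8:84847055-84847113, minus strand): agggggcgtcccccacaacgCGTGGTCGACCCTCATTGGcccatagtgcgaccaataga
Creld2 (chr15:88819500-88819558, plus strand): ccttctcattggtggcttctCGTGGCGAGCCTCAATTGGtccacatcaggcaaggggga
Syvn1 (chr19:6046512-6046570, plus strand): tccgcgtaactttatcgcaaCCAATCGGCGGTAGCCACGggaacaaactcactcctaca
Dnajc3 (chr14:118937807-118937865, plus strand): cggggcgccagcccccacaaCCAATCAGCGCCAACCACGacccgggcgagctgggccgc
Canx (chr11:50325780-50325838, minus strand): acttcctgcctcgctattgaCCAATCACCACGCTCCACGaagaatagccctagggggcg

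The matches shown began 212 to 44 bases before the start site. In Calr and Creld2 the element reads on the strand opposite to the gene, as does a second match in Hsp90b1 that is not shown. Creld2, a secreted ER stress protein, was at 133, 254, 324, 307 and 119 CPM in epiblast cells and 1366, 560.0, 889, 1114 and 1011 CPM in endoderm cells (-2.17 ± 0.33, adjusted p = 0.0011). Dnajc3, an ER cochaperone, spanned 24.4 to 118 and 222 to 419 CPM (-2.34 ± 0.42, adjusted p = 0.003), Syvn1, the ubiquitin ligase HRD1, 21.7 to 81.3 and 139.9 to 511 CPM (-2.11 ± 0.33, adjusted p = 0.0014), and Canx, calnexin, 352 to 1449 and 651 to 2180.5 CPM (-0.84 ± 0.21, adjusted p = 0.019). Canx had the smallest difference of the 8, and its ranges overlapped. In fits of 4 embryos the call was lost for Canx without embryo 1, 2 or 4 (adjusted p = 0.069 to 0.12).

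The octamer ATGCAAAT, a known binding motif of OCT4 and other POU factors, was in 1.74% of all windows, 1.20% of windows of tested genes, 3.64% of windows of genes higher in epiblast cells (20 windows of 19 genes) and 1.11% of windows of genes higher in endoderm cells (8 windows). Stretches before the start site are shown for the 5 genes of lowest adjusted p among those higher in epiblast cells with a match that ends before the start and begins at least 20 bases inside the window, chosen after their values were seen, with each octamer of either strand in capitals:
Hmga1 (chr17:27556530-27556573, plus strand): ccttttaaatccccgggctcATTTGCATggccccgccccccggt
Chchd10 (chr10:75933027-75933074, plus strand): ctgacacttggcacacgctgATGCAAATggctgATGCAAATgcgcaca
Zfp428 (chr7:24506942-24506989, plus strand): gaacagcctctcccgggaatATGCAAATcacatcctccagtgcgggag
Sinhcaf (chr6:148946471-148946514, minus strand): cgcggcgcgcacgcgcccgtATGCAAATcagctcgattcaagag
Spp1 (chr5:104435962-104436009, plus strand): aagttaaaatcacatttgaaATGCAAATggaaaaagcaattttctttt

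Chchd10, a mitochondrial protein, has 2 octamers in this stretch and was at 803, 697, 679.8, 637 and 573 CPM in epiblast cells and 202, 129.9, 94.1, 104 and 88.3 CPM in endoderm cells (2.52 ± 0.22, adjusted p = 5.9e-05). Hmga1, a chromatin protein that binds AT-rich DNA, was at 409, 288, 189.8, 143 and 164 and 31.3, 10.8, 13.3, 6.52 and 8.81 CPM (4.18 ± 0.34, adjusted p = 4.9e-05). Spp1, which encodes osteopontin, spanned 281 to 1958 and 112 to 489 CPM (2.37 ± 0.34, adjusted p = 0.00087), and Sinhcaf, a subunit of the SIN3 complex, 221 to 303 and 32.6 to 96.8 CPM (2.17 ± 0.30, adjusted p = 0.00072). Zfp428, a zinc finger gene, differed by 3.57 ± 0.34. The exons of Hmga1, Chchd10, Zfp428 and Sinhcaf overlap genes of the other strand, which reads without strand cannot separate.

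Both elements were among 18 motifs searched, and a match is a description of the letters and not a bound site. The GATA core GATAA was in 16% of windows of genes higher in epiblast cells, 16.6% of those higher in endoderm cells and 16.1% of all tested, and its longer forms were in 5.45%, 6.51% and 6.08% for AGATAA, 4.91%, 4.29% and 4.12% for TGATAA and 4.91%, 6.65% and 5.08% for GATAAG. In the same order ATGCAA, which lies within the octamer, was in 10.4%, 9.14% and 6.88%, ACAAT in 24%, 18.8% and 19.9%, AACAAT, which contains it, in 7.09%, 4.99% and 5.51% and ACAAAG in 14.5%, 14.3% and 13.1%. TGTTTAC was in 2.36%, 1.80% and 2.48%, GGTCA in 36.9%, 39.1% and 38.2% and CAAGGTCA in 1.09%, 1.25% and 0.967%. GGGCGGG was in 46.4%, 48.3% and 48.3%, CATTCC in 12.5%, 14.1% and 11.6%, CCACG, which ends the ER element, in 45.8%, 48.3% and 48.9%, and TGACGTG in 2.0%, 4.71% and 2.96%. The E-box CACGTG, part of the known element of lysosomal genes, was in 8.36%, 12.3% and 10.7%, and in 32.4% of the 34 windows of lysosomal genes.

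Promoter CpG counts are given as a description with no test. Windows with under 10 CpGs made up 30% of windows for genes higher in epiblast cells and 24.5% for genes higher in endoderm cells, against 16.1% for all tested genes and 56.5% for all windows. Median CpG counts were 18.5, 20, 21 and 7 in that order. The 24 windows of tested pluripotency factors had a median of 11 and those of the secretory pathway a median of 27.

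Of 21 tested genes of DNA methylation turnover, 4 were higher in epiblast cells, none in endoderm cells and 17 did not pass (5.61% and 7.52% over all genes, median 0.67). Tet1, which oxidises 5-methylcytosine, was at 343, 289, 354, 434 and 435 CPM in epiblast cells and 87.1, 31.3, 68.6, 59.7 and 77.6 CPM in endoderm cells (2.57 ± 0.27, adjusted p = 0.00012). Dnmt3l, the catalytically inactive cofactor of the de novo methyltransferases, was at 646, 508, 474, 248 and 672 and 336, 216, 283, 81.98 and 152 CPM (1.33 ± 0.25, adjusted p = 0.0041). Zfp57, which protects imprints, spanned 79.1 to 150.1 and 3.26 to 56.8 CPM (3.08 ± 0.63, adjusted p = 0.0072), and the chromatin remodeller Hells 385 to 852 and 50.9 to 369.8 CPM (1.96 ± 0.35, adjusted p = 0.0031).

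The methyltransferases themselves did not pass. Dnmt3a had 826, 412, 232, 220.1 and 282 CPM in epiblast cells and 327, 741, 234, 504 and 228 CPM in endoderm cells (-0.09 ± 0.33, adjusted p = 0.9), and Dnmt3b 502, 260.5, 285, 449 and 422 and 572, 587, 413, 438 and 369 CPM (-0.33 ± 0.24, adjusted p = 0.41). Both overlapped widely between the classes. Dnmt1, the maintenance enzyme, spanned 48.7 to 189.9 and 22.4 to 78.6 CPM (0.83 ± 0.47, adjusted p = 0.29). Dppa3, which guards against methylation in the early embryo and was listed with the pluripotency factors, was at 83.98, 195, 218, 393 and 88.2 and 9.99, 45.6, 12.3, 81.9 and 19.03 CPM (2.73 ± 0.39, adjusted p = 0.00087).

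Of 27 adhesion, junction and keratin genes, 4 were higher in each class (5.61% and 7.52% over all genes, median -0.47). Cldn4, a tight junction claudin (chr5:134945119-134946934, minus strand), was at 124, 72.1, 192, 12.7 and 115 CPM in epiblast cells and had no read in 51 endoderm cells, at least 1996-fold higher over a floor of 3 reads (1005-fold without the endoderm sum of embryo 4). The other claudin called, Cldn6, spanned 30.8 to 122 CPM in epiblast cells and 103 to 731 CPM in endoderm cells (-2.002 ± 0.31, adjusted p = 0.0015). P-cadherin, Cdh3, was higher in epiblast cells at 10.2 to 50.8 against 0 to 2.85 CPM (5.36 ± 1.42, adjusted p = 0.026), while E-cadherin, Cdh1, did not pass at 54.3 to 119 and 57.5 to 136 CPM (0.19 ± 0.34, adjusted p = 0.78). The adhesion protein Epcam and plakoglobin, Jup, were higher in epiblast cells by 1.26 ± 0.27 and 1.70 ± 0.48. Keratin 8, Krt8, the polarity scaffold Patj and the phospholipid-binding Anxa5 were higher in endoderm cells by -4.80 ± 1.45, -3.60 ± 1.04 and -7.86 ± 1.39, of which Krt8 and Patj were not called with the margin of 2. No longer called were Epcam without embryo 1 (adjusted p = 0.055), Cdh3 without embryo 1, 2 or 3 (adjusted p = 0.053 to 0.084), Jup without embryo 1, 2, 3 or 4 (adjusted p = 0.061 to 0.12), Patj without embryo 1, 2, 4 or 5 (adjusted p = 0.066 to 0.12) and Krt8 without embryo 2, 4 or 5 (adjusted p = 0.084 to 0.12). Anxa5 had 3 reads in epiblast cells in all, a ratio of 84.1-fold, with an exact 95% interval of 28.7 to 409.

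In glycolysis and glucose transport 3 of 21 genes were higher in each class (5.61% and 7.52% over all genes, median 0.0046), and the phosphofructokinase isoforms were opposed. Pfkp was at 224, 199.8, 180.4, 182 and 297 CPM in epiblast cells and 20.8, 3.42, 4.42, 5.94 and 25.7 CPM in endoderm cells (4.55 ± 0.46, adjusted p = 0.00011), and Pfkl at 81.3, 199, 91.6, 69.6 and 19.95 and 637, 479, 469, 331 and 187 CPM (-2.41 ± 0.31, adjusted p = 0.00041). Slc16a3, a lactate transporter, was higher in epiblast cells (2.41 ± 0.52, adjusted p = 0.0098) and Slc2a3, the glucose transporter GLUT3, in endoderm cells (-2.52 ± 0.48, adjusted p = 0.0047). Pdha1 and Tpi1 differed by 0.90 ± 0.27 and -1.07 ± 0.31, calls that were lost with the margin of 2. Of 22 cholesterol synthesis genes, 5 were higher in endoderm cells and none in epiblast cells (7.52% and 5.61% over all genes, median -1.15): Sc5d, Mvk, Lss, Hsd17b7 and Ebp, with log2 values of -4.71 ± 1.05, -2.65 ± 0.60, -1.63 ± 0.37, -4.69 ± 1.25 and -1.60 ± 0.46. Hsd17b7 was not called with the margin of 2, and 3 of the 22 were called without embryo 5. The call did not hold for Pdha1 without embryo 1, 2, 3 or 5 (adjusted p = 0.09 to 0.16), Tpi1 without embryo 1, 2, 3 or 4 (adjusted p = 0.054 to 0.15), Mvk without embryo 3 or 4 (adjusted p = 0.061 to 0.066), Lss without embryo 4 (adjusted p = 0.058), Hsd17b7 without embryo 1, 2, 4 or 5 (adjusted p = 0.056 to 0.077) and Ebp without embryo 1, 3, 4 or 5 (adjusted p = 0.056 to 0.12).

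Of 31 cell cycle genes, 3 (against 5.61% of all genes) were higher in epiblast cells and none (against 7.52%) in endoderm cells (median 0.37). Cyclin D1, Ccnd1, was at 139, 86.5, 106, 153 and 78.4 CPM in epiblast cells and 0.392, 0.57, 17.4, 3.69 and 3.34 CPM in endoderm cells (5.30 ± 0.81, adjusted p = 0.0012). Its partner kinase Cdk6 was at 81.3, 2.98, 102, 59.3 and 97.7 and 0, 0, 0, 1.28 and 0 CPM (9.18 ± 1.36, adjusted p = 0.001), with embryo 2 low among the epiblast sums. Mcm3, a helicase subunit, differed by 1.19 ± 0.36 and was not called with the margin of 2. Not past the threshold was Mcm3 without embryo 1, 3, 4 or 5 (adjusted p = 0.085 to 0.15). Of 16 trophectoderm markers only 4 could be tested. Of these, 1 was higher in endoderm cells, none in epiblast cells and 3 did not pass (7.52% and 5.61% over all genes). The 1 called was Plac1, a gene of the placenta, at 0 to 6.96 CPM in epiblast cells and 48.8 to 189 CPM in endoderm cells (-7.81 ± 0.98, adjusted p = 0.00034). Krt7 and Hand1 had 0 reads in both classes.

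The largest differences lay in genes nearly silent in 1 class, and for these the fitted log2 value depends on the prior count and is not a bound. On the epiblast side, Eras, a Ras protein of embryonic stem cells, was at 86.1, 63.6, 66.2, 23.2 and 31.1 CPM and had 1 read in all endoderm cells, a ratio of 2806-fold, with an exact 95% interval of 502 to 110972. Soga3 and BC028528 had 2 endoderm reads each. The ratio was 1661-fold, with an exact 95% interval of 458 to 13731, for Soga3 and 2347-fold, with an exact 95% interval of 648 to 19399, for BC028528. Nlrp4f, of a family with near-identical copies among which reads may be split, also had 2 endoderm reads and a ratio of 1798-fold, with an exact 95% interval of 497 to 14869.8. Irgm1, an interferon-inducible GTPase, Trem2, a lipid-sensing receptor of myeloid cells, and Aass, an enzyme of lysine breakdown, had no endoderm read and were at least 524-fold, 404-fold and 280.4-fold higher in epiblast cells with that total set to 3 reads. They were read in 8, 12 and 11 of 22 epiblast cells. Irgm1 was at 19.3, 12.4, 5.71, 5.76 and 81.4 CPM in the epiblast sums, with embryo 5 far above the others. Its bound fell to 172-fold without the epiblast sum of embryo 5, and it stayed called without embryo 5 (log2 fold change 8.81, adjusted p = 0.042). Trem2 was at 21.4, 48.7, 27.2, 8.25 and 13.9 CPM and Aass at 53.5, 36.3, 7.31, 3.84 and 5.8 CPM. In fits of 4 embryos the call was lost for Aass without embryo 1 (adjusted p = 0.054). Without the endoderm sum of embryo 4, the bounds were 264-fold for Irgm1, 203-fold for Trem2 and 141-fold for Aass. Eras and Nlrp4f then had no endoderm read left and were at least 471-fold and 603-fold higher, while the BC028528 ratio was 1181, and 4556 without the endoderm sum of embryo 2, both within its interval.

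Exoc3l, related to an exocyst subunit, was read in 22 of 22 epiblast and 2 of 51 endoderm cells, at 317, 277, 224, 35.5 and 209 CPM in epiblast sums. Dab1, the intracellular adaptor of Reelin signalling and a relative of the classing gene Dab2, was at 66.9, 10.9, 27.9, 58.3 and 132 CPM in epiblast cells and 2.74, 0, 0, 0 and 0 CPM in endoderm cells (9.43 ± 1.58, adjusted p = 0.0021). Its epiblast value in embryo 5 was 122 CPM before scaling with all 4 cells and 7.26 CPM without the 2 high on both scores (with the margin of 2, log2 fold change 8.43, adjusted p = 0.0061). Smc1b, the meiotic form of a cohesin subunit, was at 4.81, 73.6, 39.96, 81.3 and 166 and 0, 7.98, 0, 0.0336 and 0 CPM (9.15 ± 1.62, adjusted p = 0.0029). The epiblast and endoderm sums of Smc1b overlapped through embryo 1, which was low, and embryo 2.

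On the endoderm side, Pdzd3, a PDZ scaffold of epithelia, Cemip, a hyaluronan-binding protein, the galectin Lgals2 and Akr1c19, an aldo-keto reductase with near-identical relatives, had no read in 22 epiblast cells and were at least 162-fold, 161-fold, 176-fold and 197-fold higher in endoderm cells. Cemip was at 20.95, 46.1, 30.5, 30.9 and 20.4 CPM in the endoderm sums and was read in 36 of 51 cells. Stra6, the receptor that takes up retinol from its carrier, was at 89.1, 6.27, 12.04, 3.12 and 4.48 CPM in endoderm cells and at 0 in epiblast cells, at least 68.8-fold higher, with embryo 1 far above the others. The Stra6 bound was 25.9-fold without the endoderm sum of embryo 1 and 118-fold without that of embryo 4. No longer called was Stra6 without embryo 1 (adjusted p = 0.12). Ihh, the ligand Indian hedgehog, was at 34.3, 3.99, 49.4, 7.62 and 9.54 CPM in endoderm cells and had 1 read in epiblast cells, a ratio of 236-fold, with an exact 95% interval of 42.2 to 9320.3.

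Chn2, a GTPase-activating protein for Rac, the membrane protein Parm1, the Ral exchange factor Rgl1 and the transporter Slc35f5 had 1 epiblast read each. The ratio of endoderm to epiblast levels was 706-fold, with an exact 95% interval of 127 to 27891, for Chn2. It was 377-fold, with an exact 95% interval of 67.6 to 14908, for Parm1. Rgl1 had a ratio of 402-fold, with an exact 95% interval of 71.99 to 15882, and Slc35f5 of 339-fold, with an exact 95% interval of 60.6 to 13382. Snx7, a sorting nexin, and Zswim8, a ubiquitin ligase adaptor, had 2 epiblast reads each, with a ratio of 489.8-fold, with an exact 95% interval of 135 to 4046, for Snx7 and of 345-fold, with an exact 95% interval of 95.5 to 2852, for Zswim8. These intervals cover counting error only. With the epiblast sum that held its reads left out, each gene had a bound, 177-fold for Chn2, 94.8-fold for Parm1, 120-fold for Rgl1, 101-fold for Slc35f5, 174-fold for Zswim8 and 59.2-fold for Ihh. The Snx7 ratio was 738 and 742 without the epiblast sum of embryo 3 or 5, each of which held 1 read, both within its interval.

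Cell by cell the lists varied within each class. Without the 4 cells high on both scores, the mean log2(CPM + 1) over the 26 pluripotency genes ran from 4.11 to 7.47 with a median of 6.76 in 20 epiblast cells and from 2.02 to 5.45 with a median of 4.32 in 50 endoderm cells. Over the 15 endoderm transcription factors it ran from 0.451 to 4.47 (median 1.65) and from 1.96 to 6.62 (median 5.69). Of the 14 lists, secretory pathway genes had the narrowest spread, with SDs over cells of 0.492 and 0.476 around medians of 6.39 and 8.15, while endoderm cells had SDs of 1.08 for the endoderm factors and 1.09 for lysosomal genes. These ranges of the 2 classes overlapped in all 3 lists.

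The 4 cells with both scores high had reads of both lists in genes that did not enter the scores. Their pluripotency means ran from 5.69 to 6.87 and their endoderm factor means from 3.82 to 5.62, within the ranges of the epiblast and of the endoderm class. The dropped cell of embryo 1 had Nanog at 37.5 CPM, Sox2 at 71.1 CPM, Gata4 at 73 CPM and Sox17 at 103 CPM. The endoderm-classed cell of embryo 4 had Nanog at 26.1 CPM, Sox2 at 40.5 CPM and Gata4 at 91.7 CPM. In the epiblast-classed cells of embryo 5 Nanog was at 391 and 4.31 CPM, Klf2 at 166 and 0 CPM and Gata4 at 66.4 and 145 CPM. 3 of the 4 had more detected genes (7884, 8362 and 8098) than the median cell of either class (6855 and 7052), and the fourth had 6339.

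The 2 such cells of embryo 5 moved other epiblast genes of its sum in both directions. Before TMM scaling, with all 4 cells and without these 2, the epiblast sum of embryo 5 had 404 and 195 CPM for Tet1, 165 and 73.1 CPM for Fn1, 425 and 165 CPM for Spry2 and 72.8 and 28.6 CPM for Ccnd1. Nr0b1 had 78.6 and 50.8 CPM, Slc16a3 78.2 and 42.6 CPM and Irgm1 75.6 and 35.8 CPM. These were higher with the 2 cells. Others were lower with them, among them Igfbp2 at 924 and 1391 CPM, L1td1 at 321 and 486 CPM, Exoc3l at 194 and 372 CPM, Sinhcaf at 272 and 410.2 CPM and Gdf3 at 151 and 248 CPM. Hmga1 had 153 and 266 CPM, BC028528 118 and 264 CPM, Cldn4 107 and 175 CPM, Nlrp4f 58.4 and 111 CPM and Dusp6 27.3 and 52.8 CPM. Eras had 28.9 and 60.1 CPM, Soga3 40.7 and 76.03 CPM, Trem2 12.9 and 29.1 CPM and Aass 5.38 and 12.1 CPM.

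**Figure D5:**
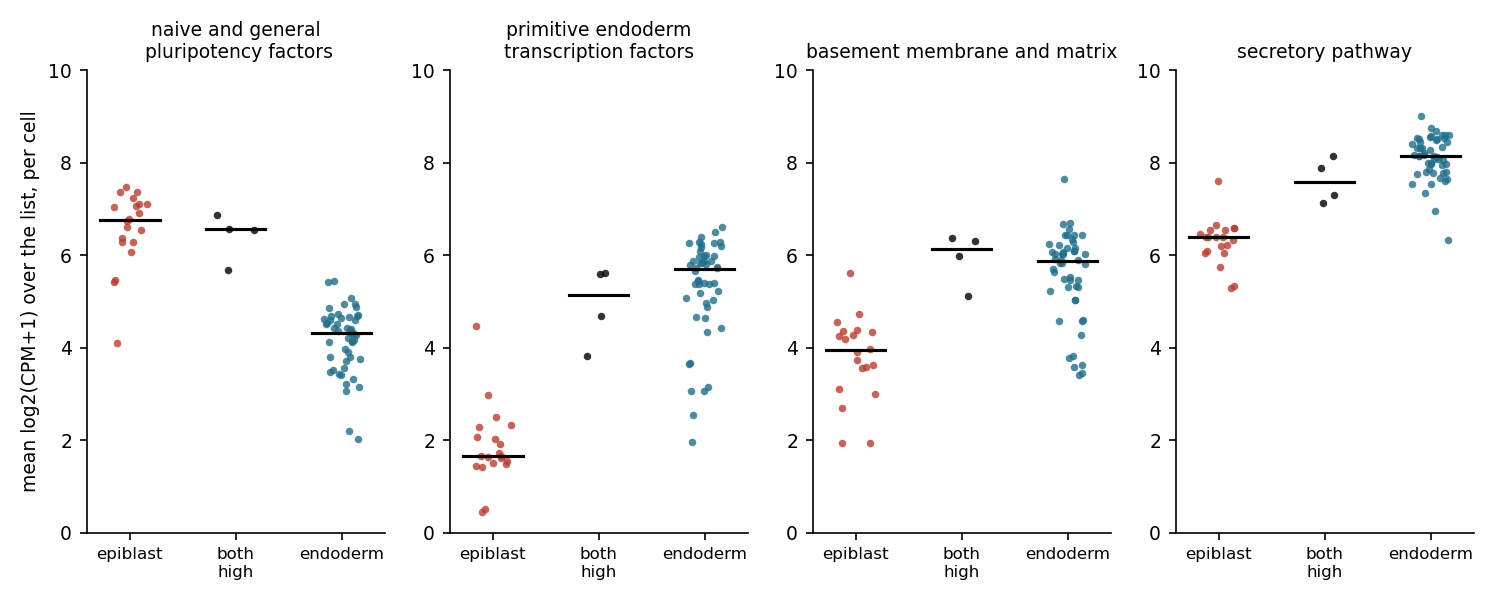
Mean log2(CPM + 1) over the tested genes of 4 lists in each cell, for 20 epiblast cells (red), the 4 cells with both scores above 6 (black) and 50 endoderm cells (blue), with black bars at medians and sideways scatter for display only. The 4 black cells have medians of 6.56 for pluripotency factors and 5.14 for endoderm factors, against 6.76 and 1.65 in epiblast cells and 4.32 and 5.69 in endoderm cells.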

How the data were processed

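RNA and DNA methylation were read from the same single cells by combined single-cell methylome and transcriptome sequencing, with RNA libraries made by Smart-seq2 per the labels. The read length of these libraries is not given in the sources used here. The authors deposited raw read counts per gene and cell, with no normalization. The submitters' processing notes name Trim Galore 0.4.2 and 0.4.5, cutadapt 1.8.1, HISAT2 2.1.0, featureCounts, R 3.4.3 and the build GRCm38, besides Bismark 0.19.0 for the bisulfite libraries, which were not used here. The gene annotation used for counting is not given in the sources used here. Smart-seq2 does not mark strand, so overlapping genes on opposite strands share reads. Among named genes this touches Eras with Pcsk1n, Lgals2 with Cdc42ep1, Ctsz with Nelfcd, Bmp6 with Txndc5, Lamp1 with Grtp1, Surf4 with Surf2, Pdia6 with Atp6v1c2, Dnmt3l with Aire, Pfkp with Pitrm1, Pdha1 with Map3k15, Tpi1 with Spsb2, Ccnd1 with LTO1, Bmp4 with Gm15217, Foxq1 with A530084C06Rik and Syvn1 with Mrpl49, besides Col4a1 with Col4a2, the promoter examples and overlaps with noncoding genes.

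Groups followed the labels, which name 5 embryos at E4.5, whereas the study's methods name fewer, a conflict that was not resolved. The members and lists were chosen with earlier results of these data known. Counts were summed per embryo and class and tested with edgeR 4.0.16 (filterByExpr, TMM, quasi-likelihood test, design embryo plus class, Benjamini-Hochberg over 9372 genes, threshold 0.05). Sums under 1 embryo label share the animal as far as the labels tell (for embryo 5 this was not tested), which is why the embryo is a block; correlations of their deviations were 0.058, 0.038, 0.031, 0.052 and 0.15. Standard errors were derived from the F statistic. Named genes were the 12 largest changes in each direction among called genes with at least 20 CPM in the higher class and the same direction in 5 embryos, up to 5 called members per list and direction by adjusted p, and members whose role the text turns on. Values of 1 gene that this rule names are not reported here. Genes named for a promoter match were chosen after their values were seen. Leaving out single sums from the fold bounds and ratios was chosen after seeing the data. Symbols and positions came from GENCODE vM21 (GRCm38), matching 21907 of 22084 identifiers. Single values were tested by exact sign-flip permutation over embryos. The code was checked on simulated counts. Alternatives used DESeq2 1.42.0 and limma 3.58.1 (R 4.3.3), RLE scaling, no low-count filter, a test against 2-fold, each cell weighted equally with pseudocounts of 1 or 5, margins of 2 or 0, cells of at least 200000 reads and 4000 genes, cells thinned to 50000 reads, and leaving out embryos. List medians were the same with genes at 0 in a class set to the 3-read floor. Intervals are exact (Clopper-Pearson, 95%) and, like floors, cover counting error only; reads carry no molecular identifiers.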

Additional observations from a re-analysis of the deposited data

Results flagged for a closer look

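Among 286 groups of 5 embryo values (each named gene in each class, on the log2(CPM + 1) scale), 19 had a single embryo far from the rest by Dixon's criterion, where chance flags about 1 in 20, or 14.3. Embryo 4 was the far one in 9, embryo 2 in 4, embryo 5 in 4 and embryos 1 and 3 in 1 each.

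In the epiblast sums, embryo 4 was low for Exoc3l (35.5 CPM, others 209 to 317), Tfe3 (49.7, others 162 to 182) and Ebp (11.7, others 70.1 to 113), and high for Trim28 (701, others 519 to 564) and Dnmt1 (189.9, others 48.7 to 66.3). Embryo 2 was low for Cdk6 (2.98 CPM, others 59.3 to 102) and high for Plac1 (6.96, others 0 to 0.457), and embryo 3 was high for Krt8 (3.65, others 0 to 0.535). Embryo 5 was high for Ctsl (1253 CPM, others 153 to 182) and Fgfr3 (40.6, others 0 to 1.83). Before scaling, Fgfr3 in that sum was 37.7 CPM with all 4 cells and 0 CPM without the 2 cells high on both scores.

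In the endoderm sums, embryo 4 was high for Exoc3l (2.59 CPM) and Cdk6 (1.28), where the others were at 0, and low for Slc35f5 (10.4, others 22.9 to 28.6) and Lamb1 (1266, others 1838 to 2140). Embryo 1 was high for Dab1 (2.74 CPM, others at 0), and embryo 2 for Smc1b (7.98, others 0 to 0.0336) and Tfe3 (59.8, others 38.3 to 43). Embryo 5 was low for Fgfr1 (0.782 CPM, others 9.17 to 14.2) and Pou5f1 (308, others 572 to 727).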

How the results depend on the processing

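The counts of 526 genes higher in epiblast cells and 705 higher in endoderm cells were 985 and 1604 in DESeq2, 263 and 358 in the test against 2-fold, 808 and 1382 with each cell weighted equally in limma (848 and 1411 with a pseudocount of 5), 192 and 317 in embryos 1 and 2 only and 228 and 244 in embryos 3 to 5 only. Leaving out 1 embryo gave 335 to 469 and 396 to 593, lowest without embryo 1. Without the replicate block, that is with the pairing within embryos ignored, the counts were 466 and 561. They stayed within 1.5 times under RLE scaling, no low-count filter, both margins, the stricter cell filter and thinning. The genes tested differed, at 3998 with cells thinned and 15430 with no low-count filter, against 9372. With cells thinned, 303 of the 526 and 415 of the 705 were kept as calls, and the rest were lost or not tested. The share of calls higher in epiblast cells was 42.7%, and 36.9% to 49.5% under the alternatives. The median over all genes was -0.21, -0.08 without the block, -0.50 with no low-count filter and -0.03 with cells thinned.

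Of 143 named genes, 130 were called. None of these turned its direction under the alternatives run, 68 stayed called under all that gave a value, and 62 were lost under at least 1. Most were lost in embryos 1 and 2 only (45), in embryos 3 to 5 only (39), without embryo 1 (24) and in the test against 2-fold (23). Without embryo 4, 3, 2 or 5 the losses were 18, 17, 15 and 12. They were 14 without the block and 9 with the margin of 2. Among genes not called, Zfp42 was 0.19 in embryos 3 to 5 only and -0.31 to 0.16 when 1 embryo was left out. Dnmt3a was 0.0083 with the margin of 2, 0.24 in embryos 1 and 2 only and -0.42 to 0.26 when 1 embryo was left out. Nodal was -0.29 without the block, -0.024 and -0.21 with equal weight per cell, -2.11 in embryos 1 and 2 only and -0.44 to 1.46 when 1 embryo was left out.

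The difference in detected genes per cell in epiblast minus endoderm cells was -328 to -228 when 1 embryo was left out and -187 without thinning (exact p = 0.5). The log2 difference in reads per cell in epiblast minus endoderm cells was -0.22 to 0.012 when 1 embryo was left out, the positive value without embryo 4. Epiblast sums hold 4 or 5 cells each, which limits the precision for genes of low level. With the margin of 0, 1 cell with no read in the 7 genes could not be classed. The cause of the differences between tools was not tested.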
